A study of Mus musculus with 6 samples.

Results

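The 32 genes described here serve protein folding in the endoplasmic reticulum (ER) and the unfolded protein response. They were taken as a named list: 14 ER chaperones and folding factors, 4 genes of ER-associated degradation, 3 stress sensors together with the transcription factor Xbp1, 7 genes of the ATF4 branch and 3 subunits of the ER import machinery. All 32 were found among 55401 genes of the deposited count table, and all 32 passed the filter on low counts, as did 16260 genes in all. The RNA came from articular cartilage of the knee, labelled as native chondrocytes, in mice aged 10 weeks, with 3 samples in each of 2 groups. The samples titled CTRL carry the genotype label WT, and those titled CKO carry the label Adseverin knockout. Adseverin, encoded by Scin, severs and caps actin filaments. Both groups had received tamoxifen from 8 weeks of age, once a day on 5 days, at 1.5 mg for every 10 g of body weight, so the controls share the drug. The labels name no Cre driver, deleted exon, strain or pooling of animals. They do not tie a sample to a separate mouse either. A p-value here rests on how the 3 samples of a group scatter, moderated over all genes, and that scatter may be technical.

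Secreted and membrane proteins enter the ER through the Sec61 channel, are folded there by chaperones, disulfide isomerases and lectins, and are sent back to the cytosol for destruction when folding fails. When unfolded protein builds up, the sensors IRE1 (Ern1), PERK (Eif2ak3) and ATF6 are activated. IRE1 splices Xbp1 mRNA, PERK phosphorylates eIF2-alpha and so favours translation of Atf4, and ATF6 is cut in the Golgi to release a transcription factor. XBP1 and ATF6 raise chaperone and degradation genes, and ATF4 raises amino acid synthesis genes and the factor CHOP (Ddit3). Chondrocytes export large amounts of collagen and proteoglycan, and defects of this system are known in chondrodysplasias. Gene-level read counts measure transcript abundance only, so splicing of Xbp1, phosphorylation by PERK and cleavage of ATF6 were not measured.

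Promoter sequence is shown first as background, since elements of this kind link some of these genes to the sensors. The list was drawn up from genes known for these roles, so a high share of windows with an element is no independent result. RefSeq promoter windows on GRCm38.p6, running from 250 bases before to 50 bases after the start, were matched by symbol for 29 of the 32 genes; Hyou1, Manf and Atf6 had no entry. The ER stress response element (ERSE), the site used by ATF6 and XBP1, was searched on both strands as CCAAT and CCACG separated by any 9 bases. It was present in 8 of the 29 windows and in 0.119% of all 32851 windows, which is 39 windows. Those 8 genes are 7 chaperones and folding factors and Syvn1, the ubiquitin ligase of ER-associated degradation. Hsp90b1 holds the site on each strand. The sites are printed 5′ to 3′ on the strand of the gene with up to 20 flanking bases, and capitals mark the element, which reads in reverse complement where it begins with CGTGG.
Hspa5, chr2:34772005-34772063, plus strand: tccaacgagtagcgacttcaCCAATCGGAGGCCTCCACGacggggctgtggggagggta
Hsp90b1, chr10:86705618-86705676, minus strand: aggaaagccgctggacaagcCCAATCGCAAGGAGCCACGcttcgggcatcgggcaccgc
Hsp90b1, chr10:86705513-86705571, minus strand: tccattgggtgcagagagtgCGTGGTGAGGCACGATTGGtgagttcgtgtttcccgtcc
Calr, chr8:84847055-84847113, minus strand: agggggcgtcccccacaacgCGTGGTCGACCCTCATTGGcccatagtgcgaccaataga
Canx, chr11:50325780-50325838, minus strand: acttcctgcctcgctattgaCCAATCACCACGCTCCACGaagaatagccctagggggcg
Pdia6, chr12:17266471-17266529, plus strand: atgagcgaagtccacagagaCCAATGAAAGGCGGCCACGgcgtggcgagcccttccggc
Dnajc3, chr14:118937807-118937865, plus strand: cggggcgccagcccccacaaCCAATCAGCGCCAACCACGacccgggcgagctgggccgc
Creld2, chr15:88819500-88819558, plus strand: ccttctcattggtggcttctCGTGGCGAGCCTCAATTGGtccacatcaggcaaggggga
Syvn1, chr19:6046512-6046570, plus strand: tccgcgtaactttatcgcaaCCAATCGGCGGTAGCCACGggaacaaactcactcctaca

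A second form of the element, ERSE-II, was searched as ATTGG and CCACG separated by any 1 base. It lay in the windows of Herpud1 and Dnajb11, after the start in the latter, and in 0.0365% of all windows. The element that binds C/EBP and ATF4 dimers (CARE) was searched as TGATGNAA and lay in 4 of the 29 windows, those of Asns, Chac1, Trib3 and Herpud1, against 3.97% of all windows. In Trib3 the match lies after the start. The Herpud1 promoter holds both kinds of site, and it is shown with the upstream sites of Chac1 and Asns, which are ATF4 targets. The core of the unfolded protein response element (UPRE), TGACGTGG, was in 0 of the 29 windows and in 0.676% of all windows. A match is only a run of letters, and no binding was measured. Capitals mark CARE (as TTGCATCA on the opposite strand) and then ERSE-II in Herpud1, and CARE in the other two.
Herpud1, chr8:94386307-94386397, plus strand: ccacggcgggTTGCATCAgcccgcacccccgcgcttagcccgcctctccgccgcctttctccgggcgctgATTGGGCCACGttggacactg
Chac1, chr2:119351029-119351076, plus strand: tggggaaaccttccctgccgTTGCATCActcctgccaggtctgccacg
Asns, chr6:7693210-7693252, minus strand: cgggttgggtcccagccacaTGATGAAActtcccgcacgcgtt

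Read totals ran from 22664828 to 31014996 per library. Scin measured 186, 185 and 219 CPM (read counts scaled to library size with TMM factors) in CTRL and 39.1, 29.9 and 29.4 CPM in CKO, so each library matched its label. All 10 chondrocyte markers were detected, with a summed level of 32219 to 33335 CPM in CTRL and 34884 to 40083 CPM in CKO, but so were all 8 markers of osteoblasts and osteocytes, at 32852 to 39311 CPM in CTRL and 38384 to 39994 CPM in CKO. Summed macrophage markers stood at 738 to 934 CPM in CTRL and 602 to 742 CPM in CKO, and those of plasma cells, which hold much ER, at 238 to 388 CPM in CTRL and 189 to 363 CPM in CKO, with 0 of 8 and 0 of 9 markers at 0. CTRL 2 held 1414 CPM of skeletal muscle markers, against 41.0 to 256 CPM in the other 5 libraries. Fibroblast markers summed to 15306 to 18062 CPM in CTRL and 13269 to 16988 CPM in CKO, and erythroid markers to 2431 to 2682 CPM in CTRL and 2501 to 3846 CPM in CKO. Neutrophil markers summed to 1093 to 1930 CPM in CTRL and 1295 to 2715 CPM in CKO, highest in CKO 3, and 7 of 8 had log2 fold changes above 0. Adipocyte markers summed to 35.1 to 180 CPM in CTRL, highest in CTRL 2, and 24.8 to 43.0 CPM in CKO. Lep was at 0, and of the 7 tested adipocyte markers all had log2 fold changes below 0, 2 of them with an unadjusted edgeR p under 0.05. Endothelial markers ran from 46.9 to 71.3 CPM in CTRL and from 36.1 to 67.2 CPM in CKO. Log2 fold changes lay above 0 for 8 of 10 chondrocyte, 6 of 8 osteoblast and osteocyte and 8 of 8 erythroid markers. Those of 7 of 8 fibroblast, 8 of 8 macrophage and 8 of 8 skeletal muscle markers lay below 0. An unadjusted edgeR p under 0.05 was held by 4 chondrocyte, 4 erythroid, 2 fibroblast and 2 plasma cell markers, against 6.50% of all genes. The osteoblast and osteocyte, macrophage and neutrophil lists held 1 each. Of those 4 chondrocyte markers 3 were higher in CKO and 1 lower, and of the 2 plasma cell markers 1 was higher and 1 lower. Those 4 erythroid markers were higher and those 2 fibroblast markers lower. The part of these cells in the results below was not tested, and in bulk tissue fewer cells of a type and less RNA per cell cannot be told apart.

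The comparison asked which transcripts differ in cartilage labelled as adseverin knockout. Of the ER folding and unfolded protein response genes, 0 of 32 passed an adjusted p of 0.05 in edgeR's quasi-likelihood test, where 0.00615% of all 16260 genes did, that 1 gene being Scin. At an unadjusted p under 0.05 the count was again 0 of 32, against 6.50% of all genes. DESeq2 also put 0 of 32 past an adjusted p of 0.05, against 0.443% of the genes it adjusted. It gave 1 gene, Hyou1, an unadjusted p under 0.05, against 4.84% of the 28446 genes to which it gave a p. That set includes genes below the filter on low counts. The median log2 fold change (CKO minus CTRL) was -0.02 over the 32 genes and 0.0037 over all genes tested. It was 0.0029 without CKO 3. There were 12 genes above 0 and 20 below, where 49.4% of all genes lay below.

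**Figure D1:**
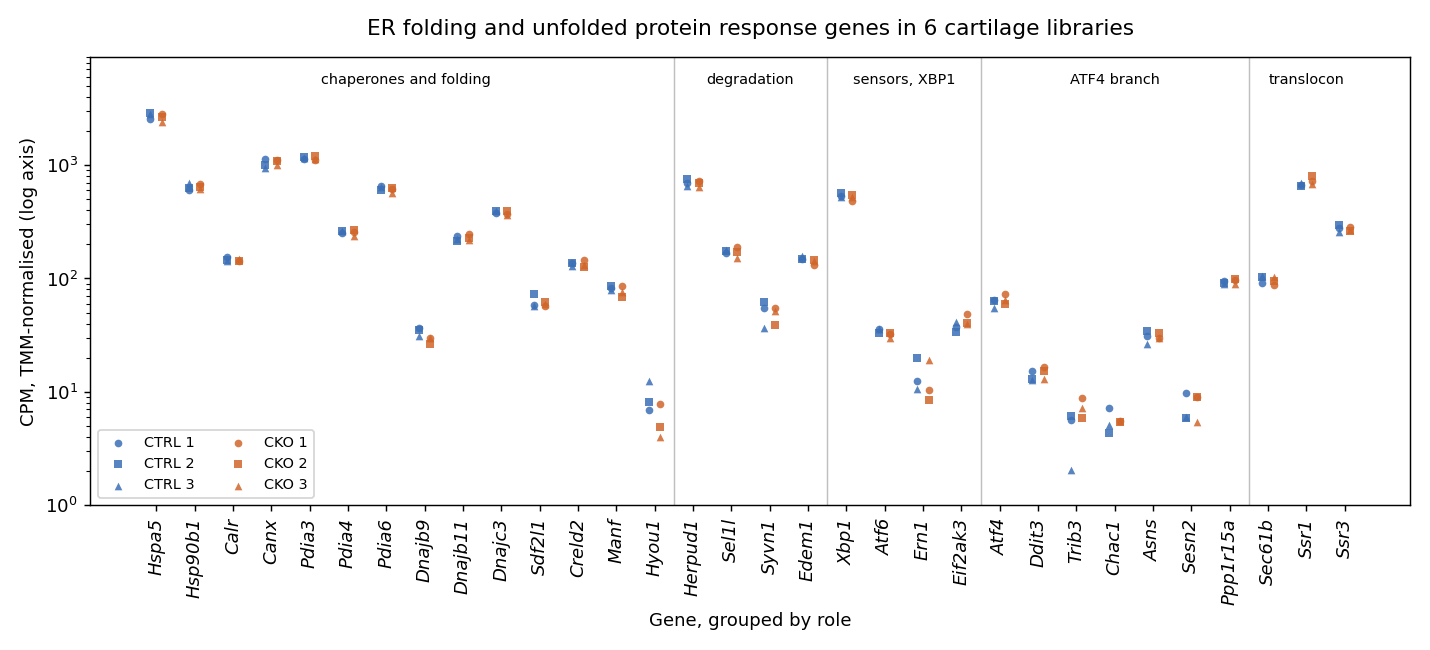
CPM of each gene in each library on a log axis, with genes grouped by role along the horizontal axis, CTRL in blue and CKO in orange, and a marker shape per replicate number. In 29 of 32 genes the CTRL and CKO values overlap and in 3 they do not, where 12.3% of all genes tested do not. Hspa5 at the top and Hyou1, Trib3, Chac1 and Sesn2 at the bottom span the range of levels.

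How far the data bound a difference was read from the 95% interval of each log2 fold change. For 27 of the 32 genes the whole interval lay within 1.5-fold in either direction, that is within 0.585 on the log2 scale. Among all genes tested that share was 39.0%. The genes described here were also more abundant, with a median level of 116 CPM against 13.9 CPM for all genes, so the narrower intervals go with higher counts. The exceptions at 1.5-fold were Hyou1, Ern1, Trib3, Chac1 and Sesn2. These rested on 858 (Chac1) to 2036 (Ern1) reads summed over 6 libraries, whereas Hspa5 rested on 411550. For these 5 genes the 95% interval did not exclude a 1.5-fold difference. An interval within 1.5-fold does not mean that such a difference would pass an adjusted p of 0.05. Gpt2, from a further list below, was at -0.63 ± 0.12 (SE) with an edgeR adjusted p of 0.533.

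**Figure D2:**
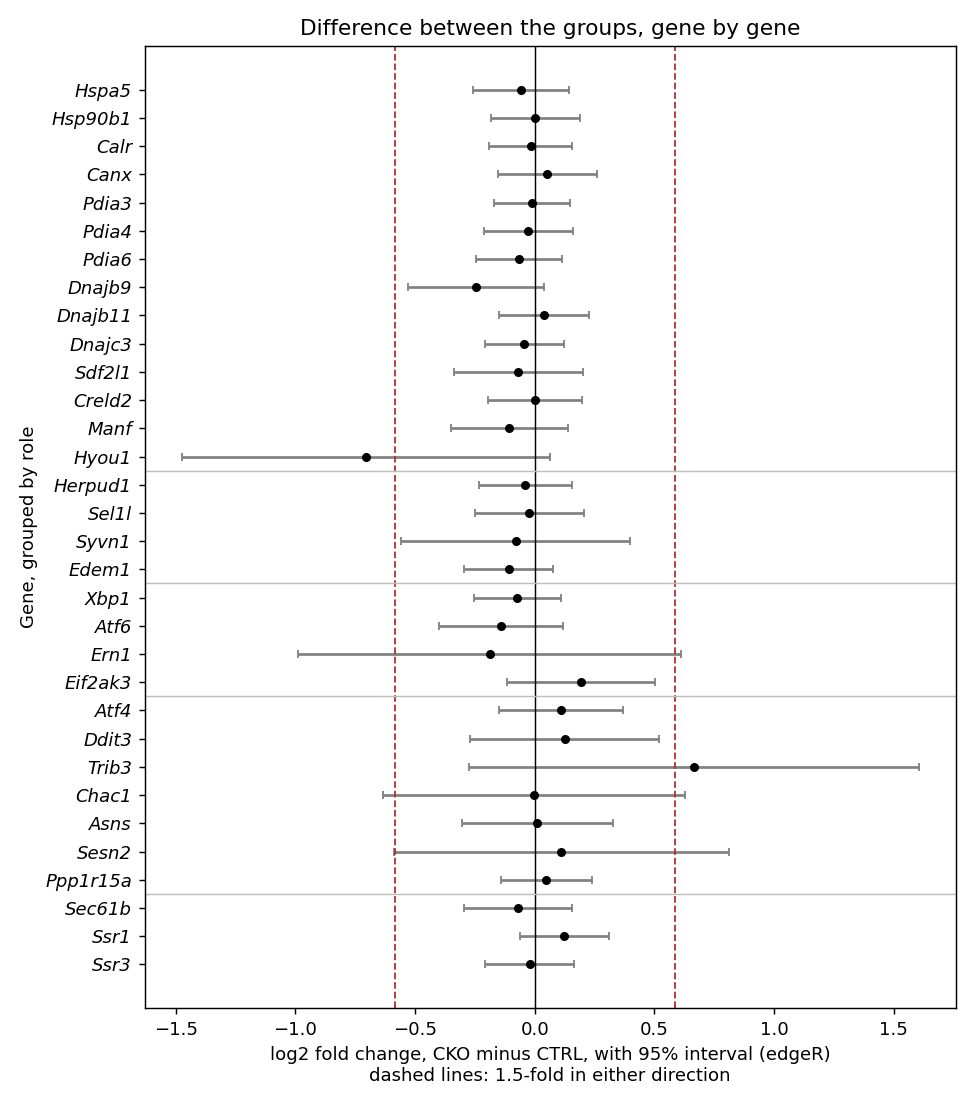
Log2 fold change (CKO minus CTRL) of each gene with its 95% interval from the edgeR fit, genes grouped by role, dashed lines at 1.5-fold in either direction. The intervals of 27 genes stay between the dashed lines, and those of Hyou1, Ern1, Trib3, Chac1 and Sesn2 cross them.

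Among the chaperones, Hspa5 (BiP), the main Hsp70 of the ER lumen and the protein that holds the sensors inactive, was the most abundant. It measured 2519, 2851 and 2820 CPM in CTRL and 2814, 2663 and 2389 CPM in CKO. The groups overlapped, with the lowest value in CKO 3 and the next in CTRL 1. The fitted CKO level was 96.0% of CTRL, with a 95% interval of 83.6% to 110%. Hsp90b1 (GRP94), the ER member of the Hsp90 family, measured 603, 631 and 689 CPM in CTRL and 674, 643 and 611 CPM in CKO, and its fitted CKO level was 100% of CTRL (95% interval 88.1% to 114%). Up to 10.3% of its exon bases overlap a pseudogene on the opposite strand, and whether the counting used strand is not stated.

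The lectin chaperones and the disulfide isomerase that works with them on glycoproteins were as level. Calr (calreticulin) measured 154, 144 and 144 CPM in CTRL and 143, 144 and 149 CPM in CKO. Canx (calnexin), its membrane-bound relative, measured 1133, 1002 and 946 CPM in CTRL and 1112, 1092 and 992 CPM in CKO. Both genes overlapped between the groups, and their fitted CKO levels were 98.8% and 104% of CTRL. Pdia3 (ERp57), the partner isomerase, measured 1125, 1179 and 1150 CPM in CTRL and 1107, 1193 and 1128 CPM in CKO. It had the narrowest interval of all 32 genes, from -0.17 to 0.15 on the log2 scale. Pdia4 (ERp72) and Pdia6 (P5), isomerases that associate with BiP, ran from 235 to 270 CPM and from 561 to 647 CPM over all 6 libraries, and in both the lowest library was CKO 3.

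The J-domain cochaperones, which drive the ATPase of BiP, did not all stand alike. Dnajb11 (ERdj3) ran from 215 to 238 CPM in CTRL and from 219 to 246 CPM in CKO, and Dnajc3 (P58IPK) from 378 to 395 CPM in CTRL and from 363 to 396 CPM in CKO. Dnajb9 (ERdj4), a target of XBP1 that represses IRE1, measured 36.6, 34.8 and 31.2 CPM in CTRL and 30.1, 26.6 and 29.9 CPM in CKO. All 3 CKO values lay below all 3 CTRL values. Its log2 fold change was -0.25 ± 0.12 (SE), with an unadjusted p of 0.0831 and an adjusted p of 0.811 in edgeR. The smallest p of the list was that of Hyou1 (GRP170), the large Hsp70 relative that exchanges nucleotide on BiP. Hyou1 measured 6.90, 8.12 and 12.4 CPM in CTRL and 7.88, 4.94 and 4.02 CPM in CKO, so CKO 1 lay within the CTRL range while CKO 2 and CKO 3 lay below it. Its log2 fold change was -0.71 ± 0.34 (SE; edgeR unadjusted p = 0.0674, adjusted p = 0.793), and it was -0.42 without CTRL 3 and -1.03 without CKO 1. The Dnajb9 gene spans chr12:44205559-44210326, and Hyou1 spans chr9:44379490-44392369. With DESeq2, Hyou1 had an unadjusted p of 0.0493 and an adjusted p of 0.691.

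The smaller secreted or retained factors did not pass the test either. Creld2, a secreted ER protein raised by stress, measured 137, 136 and 129 CPM in CTRL and 145, 126 and 131 CPM in CKO, and its log2 fold change of 0.00038 was the closest to 0. Sdf2l1, which works with Dnajb11, ran from 57.0 to 72.3 CPM in CTRL and from 57.0 to 62.4 CPM in CKO, with CTRL 2 the highest. Manf, a stress-raised factor that binds BiP, measured 82.2, 86.0 and 79.0 CPM in CTRL and 86.1, 68.2 and 75.5 CPM in CKO. For Manf the CKO libraries spanned the CTRL range and reached below it. The fitted CKO level was 95.4% of CTRL for Sdf2l1 (95% interval 79.1% to 115%) and 92.9% for Manf (78.4% to 110%). Of the 14 chaperones and folding factors, 4 had log2 fold changes above 0 and 10 below, with a median of -0.03 (-0.0073 without CKO 3, -0.057 without CKO 2), and 13 had intervals within 1.5-fold.

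The 4 genes of ER-associated degradation did not pass the test, and their median log2 fold change of -0.06 was -0.0072 without CTRL 2, -0.034 without CKO 2 and -0.094 without CKO 1. Herpud1, which organises the degradation complex at the membrane and carries both promoter elements printed above, measured 695, 757 and 658 CPM in CTRL and 719, 694 and 640 CPM in CKO. Its fitted CKO level was 97.3% of CTRL (95% interval 85.1% to 111%). Sel1l, the adaptor of the ligase, ran from 168 to 177 CPM in CTRL and from 151 to 191 CPM in CKO, so the CKO libraries lay on both sides of the controls. Syvn1 (HRD1), the ligase itself, measured 55.1, 61.7 and 36.6 CPM in CTRL and 54.9, 38.8 and 51.6 CPM in CKO. Its spread within a group, with a coefficient of variation of 25.5% in CTRL and 17.6% in CKO, was the widest of the 4. Edem1, which directs misfolded glycoproteins to degradation, measured 149, 148 and 157 CPM in CTRL and 131, 146 and 144 CPM in CKO. All 3 CKO values of Edem1 were below the CTRL values, and the log2 fold change was -0.11 ± 0.08 (SE; edgeR adjusted p = 0.883). It was -0.061 without CKO 1.

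Of the sensors, Atf6 measured 35.6, 33.2 and 35.8 CPM in CTRL and 32.4, 32.8 and 29.7 CPM in CKO, again with no overlap, and its log2 fold change was -0.14 ± 0.11 (SE; edgeR adjusted p = 0.897). Together with Dnajb9 and Edem1 it made 3 of 32 genes whose groups did not overlap, all lower in CKO. Over all genes 12.3% did not overlap, 5.89% of them lower and 6.41% higher as shares of all genes tested. Eif2ak3 (PERK) measured 37.7, 33.5 and 41.6 CPM in CTRL and 48.7, 40.7 and 39.6 CPM in CKO. CKO 1 stood highest and the other CKO libraries lay within the CTRL range, and the log2 fold change was 0.19 ± 0.14 (SE; edgeR adjusted p = 0.872). It was 0.096 without CKO 1 and 0.11 without CTRL 2. A gene model of uncertain status on the opposite strand covers 8.0% of its exon bases.

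Ern1 (IRE1-alpha), the sensor with ribonuclease activity, measured 12.5, 20.1 and 10.6 CPM in CTRL and 10.5, 8.43 and 19.0 CPM in CKO. Each group held 1 high library, CTRL 2 and CKO 3, and the other 4 ran from 8.43 to 12.5 CPM. The log2 fold change was -0.19, and it was 0.12 without CTRL 2, 0.035 without CKO 2 and -0.61 without CKO 3. Xbp1, whose mRNA IRE1 splices, was far more abundant and steadier, at 529, 572 and 522 CPM in CTRL and 482, 542 and 519 CPM in CKO. The Xbp1 counts add the spliced and unspliced forms. Its fitted CKO level was 95.1% of CTRL (95% interval 83.8% to 108%). The median log2 fold change of Xbp1 and the 3 sensors was -0.11. It was 0.036 without CTRL 2, -0.038 without CKO 2 and -0.050 without CKO 1.

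In the ATF4 branch 6 of 7 genes had log2 fold changes above 0, with a median of 0.11, and 0 of 7 passed the test. That median was 0.021 without CKO 2, 0.028 without CTRL 3 (4 of 7 above 0), 0.035 without CKO 1 and 0.21 without CTRL 1. Atf4 itself, a leucine zipper factor controlled mainly by translation, measured 64.4, 62.8 and 55.1 CPM in CTRL and 72.4, 59.2 and 65.2 CPM in CKO. Ddit3 (CHOP), the factor linked to cell death under lasting stress, measured 15.3, 13.0 and 12.7 CPM in CTRL and 16.5, 15.3 and 12.9 CPM in CKO. In both genes the groups overlapped and CKO 1 was the highest library. Of the Ddit3 exon bases 6.1% are shared with a second gene model of the same name and strand, 105 bases long and listed with 0 reads, and 4.0% overlap Mars on the opposite strand.

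Trib3, a pseudokinase induced by ATF4 and CHOP, had the largest positive difference, on few reads. It measured 5.66, 6.14 and 2.05 CPM in CTRL and 8.85, 5.89 and 7.24 CPM in CKO. CKO 1 and CKO 3 exceeded every control, CKO 2 lay among them, and CTRL 3 stood low. The log2 fold change of 0.67 ± 0.41 (SE; edgeR adjusted p = 0.854) was 0.31 without CTRL 3 and 0.92 without CTRL 2, and its interval ran from -0.27 to 1.605. Chac1, a glutathione-degrading enzyme, measured 7.19, 4.30 and 5.09 CPM in CTRL and 5.58, 5.43 and 5.57 CPM in CKO. The CKO libraries of Chac1 were nearly equal to each other and lay inside the CTRL range. Its fitted difference was close to 0, at 0.23 without CTRL 1 and -0.16 without CTRL 2.

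The remaining targets of this branch were level or scattered. Asns, which makes asparagine, measured 31.4, 34.7 and 26.3 CPM in CTRL and 30.2, 32.8 and 30.1 CPM in CKO, and its fitted CKO level was 101% of CTRL (95% interval 81.0% to 125.3%). Sesn2, a stress-raised inhibitor of mTORC1, had 1 high and 2 low libraries in CTRL (9.78, 5.92 and 6.04 CPM) and 2 high and 1 low in CKO (9.08, 8.99 and 5.44 CPM). Its log2 fold change of 0.11 was 0.39 without CTRL 1, 0.32 without CKO 3 and between -0.02 and -0.00036 with any 1 of the other 4 libraries left out. Ppp1r15a (GADD34), which brings the phosphatase to eIF2-alpha and so ends the translational block, ran from 89.1 to 95.03 CPM in CTRL and from 89.4 to 98.6 CPM in CKO. Its interval, from -0.14 to 0.24 on the log2 scale, was the narrowest of the 7.

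The import machinery was measured through Sec61b, a subunit of the channel, and Ssr1 and Ssr3, subunits of the translocon-associated TRAP complex. Ssr1 measured 666, 659 and 694 CPM in CTRL and 725, 796 and 679 CPM in CKO. CKO 1 and CKO 2 lay above all controls and CKO 3 among them, and the log2 fold change was 0.12 ± 0.08 (SE; edgeR adjusted p = 0.861). It was 0.061 without CKO 2 and 0.18 without CKO 3. Sec61b ran from 91.3 to 105 CPM in CTRL and from 87.0 to 102 CPM in CKO, and Ssr3 from 257 to 293 CPM in CTRL and from 263 to 284 CPM in CKO. The 3 subunits did not share a sign, with a median of -0.02 that was 0.018 without CTRL 2 and 0.0039 without CKO 2, and all 3 intervals lay within 1.5-fold.

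**Figure D3:**
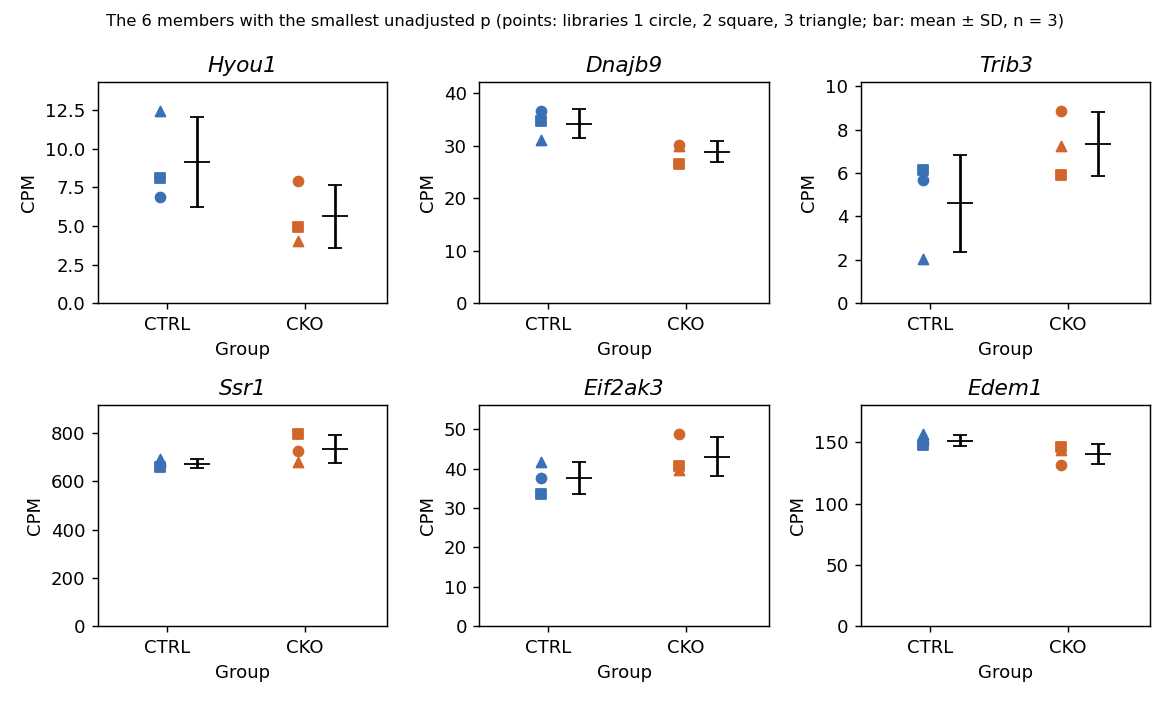
CPM per library (points, on axes that start at 0) with mean and SD (bars, n = 3 per group) for the 6 genes with the smallest unadjusted p: Hyou1, Dnajb9, Trib3, Ssr1, Eif2ak3 and Edem1. The groups are separate in Dnajb9 and Edem1, and overlap in the other 4 genes.

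The genes were also read library by library. The median deviation of the 32 genes from their own means, on the log2 scale, was 0.053 in CKO 1 and -0.054 in CKO 3, both of the same group, while the CTRL libraries lay at 0.027, 0.033 and -0.02. Over all genes tested the same median was between -0.0016 and 0.015 in each library. CKO 3 was the highest library for 0 of the 32 genes, against 17.6% of all genes, and the lowest for 9, against 17.0%. CTRL 3 was the lowest for 8, against 18.1% of all genes, and CKO 1 for 6, against 16.3%. CKO 1 and CTRL 2 were each the highest for 8, against 16.2% and 17.7% of all genes. Among the 14 chaperones and folding factors CKO 3 was the lowest library for 5, and CKO 1 and CKO 2 for 3 each. By role, CKO 1 had median deviations of 0.11 in degradation genes, 0.20 in ATF4 branch genes and -0.081 in the sensors and Xbp1. Its medians were 0.038 in chaperones and folding factors and 0.048 in translocon subunits. CTRL 3 stood lowest in the ATF4 branch at -0.19.

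**Figure D4:**
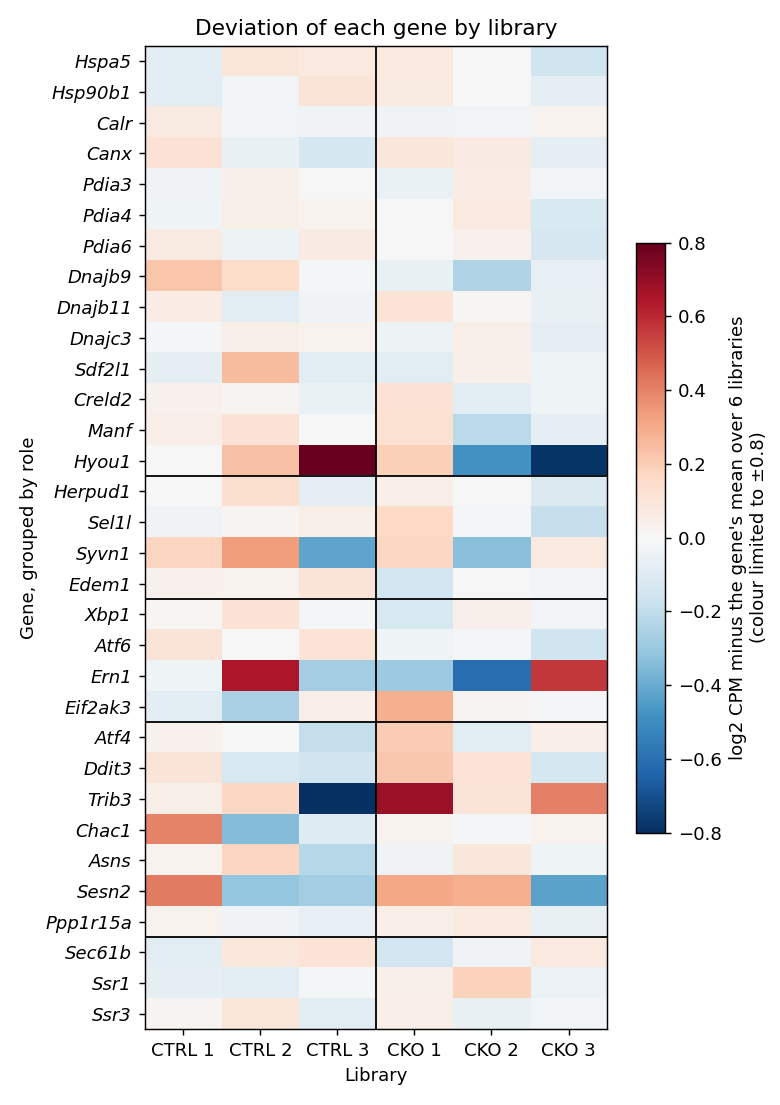
Deviation of log2 CPM from the gene's mean over 6 libraries, genes in rows by role and libraries in columns, red above and blue below the mean, with colour limited to 0.8 in either direction. The strongest colours fall on Trib3, Hyou1 and Ern1, followed by Sesn2, Syvn1 and Chac1, and CKO 3 is below the mean in most chaperone rows.

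Levels were compared between genes per kilobase of annotated exon, averaged over all 6 libraries. Hspa5 stood first at 633 CPM per kb, followed by Pdia3 at 365, Herpud1 at 297 and Canx at 223 CPM per kb. The sensors stood near the bottom of this order, with Atf6 at 3.60 and Ern1 at 1.65 CPM per kb, and Eif2ak3 at 6.69 CPM per kb. The transcription factor Xbp1 stood sixth at 163 CPM per kb, next to Pdia6 at 164.5 and Hsp90b1 at 159 CPM per kb, and these neighbours do not differ beyond their spread over libraries. Hyou1 stood last at 1.02 CPM per kb, although its partner BiP stood first. For Xbp1 and Pdia6 the identifier versions in the counts differed from those of the annotation used for lengths and overlaps. For Hyou1 no such difference was found, and the reason for its low level was not tested. The ERSE-bearing genes had a median level of 129 CPM per kb (10.2 to 633), against 26.8 CPM per kb for the 21 without the element in the window. Of the 8, 7 are chaperones and folding factors. The 21 hold all 7 ATF4 branch genes, at 31.8 CPM per kb or less, but also Pdia3 and Herpud1, so role and element cannot be told apart here. The log2 fold changes of the ERSE-bearing genes ran from -0.08 to 0.05 with a median of -0.03, and all 8 intervals lay within 1.5-fold.

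The rest of the ER pathway was read from 6 further lists. Of their 112 distinct tested genes 0 passed an adjusted p of 0.05 in either direction in edgeR, and 1, Gpt2, did in DESeq2. An unadjusted p under 0.05 was found for 8 genes, all with lower values in CKO, where 2.96% of all genes had such a p with lower values and 3.54% with higher values. Of 22 other oxidoreductases, prolyl isomerases and folding factors, 18 had log2 fold changes below 0, with a median of -0.09, and 1 had an unadjusted p under 0.05. That was Creld1, the paralog of Creld2, at 11.4, 12.1 and 10.5 CPM in CTRL and 7.93, 7.31 and 8.83 CPM in CKO, with an edgeR adjusted p of 0.715. Uggt1, the sensor of glycoprotein folding, was next at a log2 fold change of -0.24 ± 0.12. Of 16 other degradation genes 0 had an unadjusted p under 0.05, and the 2 with the smallest p were Ube2j1, a ubiquitin-conjugating enzyme of the ER membrane, at 0.17 ± 0.11, and Vcp, the ATPase that extracts substrates, at -0.10 ± 0.08.

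Of 14 other sensors and regulators, 2 had an unadjusted p under 0.05. Eif2ak4 (GCN2), which phosphorylates eIF2-alpha when amino acids run short, measured 13.2, 17.3 and 15.1 CPM in CTRL and 10.0, 11.1 and 12.01 CPM in CKO. Mbtps2, the site-2 protease that cuts ATF6, measured 16.9, 14.6 and 16.9 CPM in CTRL and 13.5, 6.65 and 3.68 CPM in CKO. The CKO libraries of Mbtps2 all lay below the controls but differed among themselves more than the controls did. Both genes had edgeR adjusted p-values above 0.7, at 0.715 for Eif2ak4 and 0.719 for Mbtps2. Of the 19 other genes of translocon, signal recognition and signal peptidase, 1 had an unadjusted p under 0.05. This was Sec61a1, the pore subunit of the channel, at 297, 279 and 257 CPM in CTRL and 239, 242 and 242 CPM in CKO (edgeR adjusted p = 0.715), with Sec63 next at -0.13 ± 0.10. Of 18 COPII and ER export genes 0 had an unadjusted p under 0.05. Sec24a, a cargo adaptor, had the smallest p at 0.49 ± 0.22 and Lman1, a cargo receptor, the next at -0.11 ± 0.08.

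The list of other ATF4 and CHOP targets held 24 tested genes of 25; Slc7a11 had 27 reads in all and was filtered out. Of the 24, 17 had log2 fold changes below 0, with a median of -0.07, and 4 had an unadjusted p under 0.05, all lower. Gpt2, a mitochondrial alanine aminotransferase, measured 30.5, 30.4 and 31.8 CPM in CTRL and 20.9, 20.7 and 18.2 CPM in CKO (edgeR adjusted p = 0.533, DESeq2 adjusted p = 0.0116), a log2 fold change of -0.63 ± 0.12 (SE) in edgeR. Ddit4 (REDD1), which is also induced by hypoxia and glucocorticoids, measured 6.08, 6.36 and 10.2 CPM in CTRL and 3.67, 3.13 and 3.18 CPM in CKO (edgeR adjusted p = 0.605). The other two were Nupr1 and Cebpb, both stress-related transcription regulators, at -0.28 ± 0.10 each. Over all genes tested 2.96% had such a p with lower values in CKO. All 4 had no overlap between the groups, where 5.89% of all genes tested had none with lower values. These 4 were picked by their p in the same data, so the lack of overlap adds no support. The difference between this list and the 7 genes above was not tested.

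**Figure D5:**
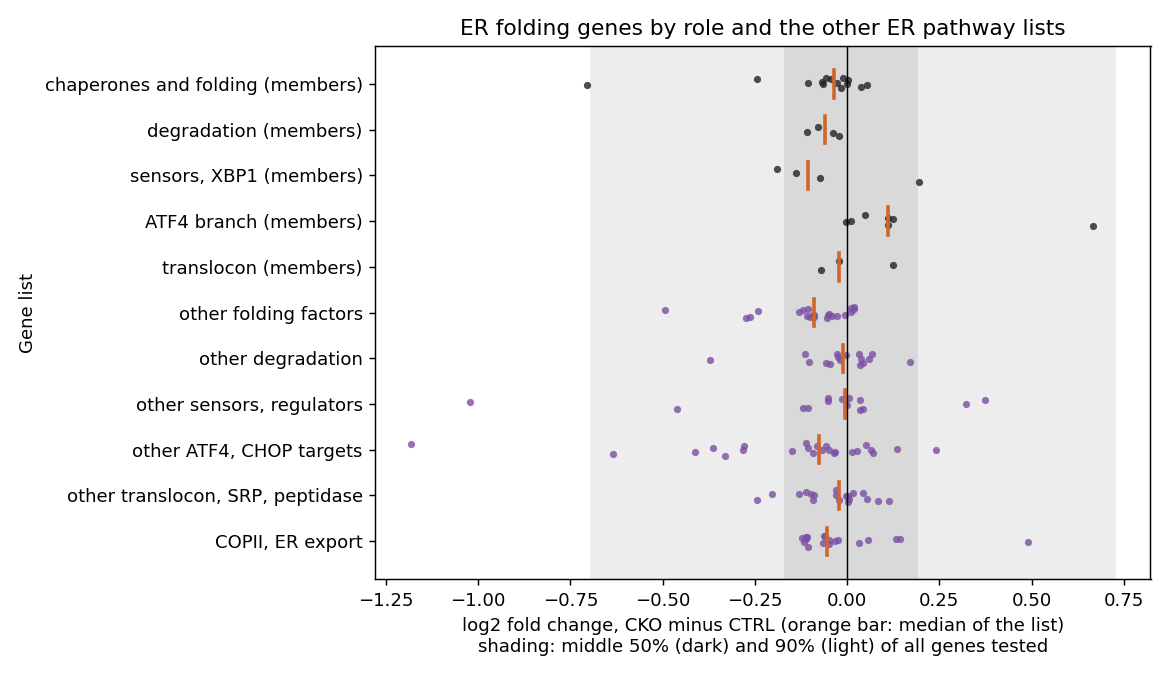
Log2 fold change (CKO minus CTRL) of each gene in the 5 roles of the ER folding and unfolded protein response genes (black) and in 6 further ER pathway lists (purple), with list medians as orange bars and the middle 50% and 90% of all genes tested as shading. The medians run from -0.11 for the sensors and Xbp1 (0.036 without CTRL 2) to 0.11 for the ATF4 branch (0.021 without CKO 2), and Ddit4, Mbtps2 and Hyou1 lie farthest to the left.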

How the data were processed

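The members and gene lists were chosen with earlier results of these data known. The authors deposited raw gene-level counts with Ensembl identifiers, and a normalized signal. Tools listed in the submitters' processing notes are DESeq2 1.30.1, R 4.0.5, featureCounts 2.0.1, HISAT2 2.2.1 and FastQC 0.11.9, with the build GRCm38, without settings or strand. Per the labels' protocols, libraries were full-length cDNA from very low RNA input. The deposited signal equals the counts divided by 1 factor per library: whole reads came back, within 0.001 of a read, for 100% of nonzero values, 0 differed from the count table, and edgeR on them called 1 gene. Counts (22664828 to 31014996 reads per library) were filtered with filterByExpr, TMM-normalised and tested with edgeR 4.0.16 (glmQLFit, glmQLFTest, group only, 4 residual degrees of freedom, Benjamini-Hochberg over 16260 genes, R 4.3.3). SE is the log2 fold change divided by the square root of F, and 95% intervals use the moderated degrees of freedom of the fit. Exact permutation was not used, since with 3 samples a group its smallest p is 0.1. Libraries of a group differed by a chi-square per degree of freedom of 31.4 to 36.5, so none was counted as a duplicate. Named genes are all 32 members, Scin, and from each further list the 2 genes with the smallest p; Nupr1 and Cebpb were named after their values were seen. Ero1a and Ero1b were matched through older symbols. Symbols, exon lengths and overlaps come from GENCODE M21 (GRCm38), and 55141 identifiers had a symbol. Alternatives were DESeq2 1.42.0, limma 3.58.1 (voom, and trend on log2 of the signal plus 1), other scaling, filters and dispersion, a replicate block and left-out libraries; edgeR on the recovered reads was added after seeing the data. The scripts were tested on simulated data. No protein sequences were used.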

Additional observations from a re-analysis of the deposited data

How the results depend on the processing

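The number of members past an adjusted p of 0.05 was 0 in the main fit and in each of 19 other settings, and the smallest adjusted p of any member over those settings was 0.622 (Hyou1 without CKO 1). Robust dispersion and the recovered reads gave the log2 fold changes of the main fit and cannot turn a direction. The other 11 settings are those without a single library left out, and they include the fit with CTRL 2 and CKO 3 both left out. Over these 11, 326 of 352 member and setting pairs kept their direction and 26 did not. With single libraries left out 162 of 192 did and 30 did not. The members that kept their direction throughout were 15, among them Hyou1, Dnajb9, Atf6, Edem1, Trib3 and Eif2ak3. Over all genes the count past the threshold, 1 in the main fit, was 82 with DESeq2 and again 82 on the edgeR genes, 3 with no filter, 0 with CTRL 2 and CKO 3 both left out, and 1 to 2 with single libraries left out (2 without CTRL 3); the cause was not tested. The median of -0.02 ran from -0.038 to 0.0029 with single libraries left out and was 0.028 with CTRL 2 and CKO 3 both left out. With the replicate block the median was -0.024 and 0 members and 1 gene passed. Numbers are shared only in the titles; deviations of same-numbered samples correlated at -0.019, 0.071 and 0.023, so the samples were not taken as paired.

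Creld2, at 0.00038 in the main fit, was at -0.0058 (DESeq2), -0.0046 (DESeq2 on the edgeR genes), -0.0053 (voom), -0.0076 (limma-trend), -0.0044 (RLE), -0.0079 (library sizes), -0.0049 (no filter), -0.0017 (1 CPM filter) and -0.0016 (replicate block). Hsp90b1, at 0.0033, was at -0.0030, -0.0019, -0.0017 (limma-trend), -0.0019 (RLE), -0.0047 (library sizes) and -0.0017 (no filter), the first pair with DESeq2. Chac1, at -0.0017, was at 0.012 (voom), 0.027 (limma-trend) and 0.032 (replicate block). With CTRL 2 and CKO 3 both left out, Hspa5 was at 0.033, Pdia3 at 0.012, Pdia4 at 0.038, Sdf2l1 at 0.051, Herpud1 at 0.061, Sel1l at 0.059, Syvn1 at 0.028 and Ssr3 at 0.027. With single libraries left out the ranges that crossed 0 were Hspa5 -0.12 to 0.0060, Hsp90b1 -0.044 to 0.059, Calr -0.039 to 0.0100, Canx -0.0031 to 0.12, Pdia3 -0.043 to 0.012, Pdia4 -0.075 to 0.027, Dnajb11 -0.0068 to 0.079, Sdf2l1 -0.13 to 0.044, Creld2 -0.061 to 0.043, Herpud1 -0.085 to 0.011, Sel1l -0.11 to 0.060, Syvn1 -0.27 to 0.073, Ern1 -0.61 to 0.12, Chac1 -0.16 to 0.23, Asns -0.090 to 0.097, Sesn2 -0.019 to 0.39 and Ssr3 -0.069 to 0.018. For Hyou1, Ern1, Trib3, Chac1 and Sesn2 the 95% interval did not exclude a 1.5-fold difference. The shares of depth and spread in the width of these intervals were not tested: Ern1, with 2036 reads, had an SE of 0.35, and Ddit3, with 2206 reads, 0.17.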
